A study of Mus musculus with 5 samples.

Results

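Genes of Notch signalling and of antigen receptor rearrangement, 10 in all, were followed in ILC2s (group 2 innate lymphoid cells) sorted from mouse lung and sequenced cell by cell: the receptors *Notch1* and *Notch3*, the Notch target *Hes1* and the regulator *Dtx1*, the recombinase genes *Rag1* and *Rag2*, the polymerase gene *Dntt*, the pre-TCR chain gene *Ptcra*, and *Sox4* and *Arpp21*. They are 10 of the 27726 genes counted, and they were chosen by their measured levels and joint presence in 1 of the 5 libraries, the ta-non-activated one of week 3. Their levels there, and their joint presence in its cells, are therefore a description and carry no test.

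Each library was made on the 10x Genomics 3' platform from lung ILC2s of 5 pooled WT C57BL/6 mice, females of 4 to 8 weeks of age. The naïve library came from mice without tumour and was sequenced fresh. The ta-non-activated libraries were sequenced fresh from mice carrying TC1 tumours, a mouse lung tumour line placed under the skin, at week 2 or week 3. The ta-activated libraries came from such mice at the same weeks, and their cells were cultured for 7 days in 10 ng/mL of TSLP, of rhIL-2 and of rmIL-33. The sort took Lin- ST2+ CD127+ Thy1.2+ CD45+ cells, and the lineage antibodies included those to CD3ε/γ, CD4, CD8α, TCRβ and NK1.1.

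Notch receptors are cut after they bind a ligand on a neighbouring cell, and their inner part then joins the DNA-binding protein RBPJ (also called CSL) to switch on genes such as *Hes1*. In the thymus this signal directs progenitors to the T cell lineage. There RAG1 and RAG2 cut the receptor gene segments, the terminal transferase encoded by *Dntt* adds bases at the joints, and the product of *Ptcra* pairs with a finished β chain. ILC2s carry no rearranged antigen receptor on their surface and depend on factors such as GATA3 and RORα.

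Promoter sequence is shown for the rearrangement members *Ptcra*, *Rag1* and *Dntt*, on whose levels the results turn, and these 3 windows were chosen after the matches in all were counted. Each run is the 250 bases before the gene's start, 5′ to 3′ in the direction of the gene, from RefSeq on GRCm38.p6. Capitals mark TGGGAA (the core of the RBPJ site), CAGGTG or CAGCTG (E-boxes, bound by the E proteins of early lymphocytes) and TGTGGT (the RUNX core), searched on both strands. In these 3 windows all capitals read in the letters given here. No match overlaps another in these windows.
Ptcra (chr17:46763713-46763962, minus strand): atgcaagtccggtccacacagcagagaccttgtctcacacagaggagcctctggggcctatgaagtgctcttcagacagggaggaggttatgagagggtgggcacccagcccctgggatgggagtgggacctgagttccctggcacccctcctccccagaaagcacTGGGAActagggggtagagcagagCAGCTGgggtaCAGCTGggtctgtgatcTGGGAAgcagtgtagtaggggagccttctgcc
Rag1 (chr2:101649533-101649782, minus strand): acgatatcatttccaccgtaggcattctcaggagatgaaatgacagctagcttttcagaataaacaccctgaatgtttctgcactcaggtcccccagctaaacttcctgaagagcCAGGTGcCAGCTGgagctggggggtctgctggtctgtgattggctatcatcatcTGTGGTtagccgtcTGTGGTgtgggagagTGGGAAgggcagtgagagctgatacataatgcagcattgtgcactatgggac
Dntt (chr19:41029025-41029274, plus strand): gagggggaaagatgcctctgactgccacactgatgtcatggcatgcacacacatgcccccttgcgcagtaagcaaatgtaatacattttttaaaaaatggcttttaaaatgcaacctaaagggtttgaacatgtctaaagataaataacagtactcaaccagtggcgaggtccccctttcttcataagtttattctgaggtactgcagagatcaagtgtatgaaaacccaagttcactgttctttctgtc
The *Ptcra* window held 2 matches to TGGGAA and 2 to CAGCTG. In the *Rag1* window there were 1 TGGGAA, 1 CAGGTG, 1 CAGCTG and 2 TGTGGT. *Dntt*, the rearrangement gene with the most UMIs, had none of these letters in its window. Of 32851 windows of this length over all genes, 21.6% held TGGGAA, 17.2% CAGGTG, 13.0% CAGCTG, 14.0% TGTGGT and 27.7% either E-box. Of the 8 members with a single window, 3 held TGGGAA, 3 an E-box and 1 TGTGGT. *Arpp21* had several windows, and *Hes1* none in the table used. A match is a description of letters and not a binding site.

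Barcodes were used where they had 200 or more genes and less than 5% of their counts from mitochondrial genes, which left 16530 cells, between 1601 (week 3 ta-non-activated) and 6389 (naïve) per library. The ta-non-activated library of week 3 was the shallowest, with 9394957 UMIs (unique molecular identifiers, 1 per captured molecule) and a median of 4396 per cell, against 32395387 to 61830293 UMIs and medians of 4517 to 16090 in the other 4. It also stood apart in the summed levels of 2 sets of marker genes. The 8 ILC2 genes *Il1rl1*, *Il13*, *Il5*, *Areg*, *Rora*, *Klrg1*, *Il17rb* and *Arg1* summed to 752 CPM (UMIs of a gene scaled to a library total of 1000000) there and to 5404 to 10673 CPM elsewhere, and the 4 CD3 genes summed to 2936 CPM there and to 49.0 to 387 CPM elsewhere. Any 2 libraries shared between 1 and 8 cell barcodes. Each condition is 1 library and cells are not replicates, so the 95% intervals, given in parentheses after levels (exact Poisson), shares (Clopper-Pearson) and ratios (exact binomial), cover counting error only and not differences between mice. Levels are per UMI and not per base of transcript, and in a summed library fewer cells of a type and less RNA per cell cannot be told apart.

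All 10 members were highest in the ta-non-activated library of week 3, and none of their intervals there overlapped with one of another library. Of 14400 genes with at least 20 UMIs over the 5 libraries, 20.7% were highest in it, and since the members were picked there nothing is read from their count. A level at least 4-fold above each of the other 4 libraries was found for 8 of the 10 members and 2.72% of all genes. *Notch1* and *Dtx1* stayed under that fold. Over the ta-activated library of week 3 alone, 9 members (all but *Notch1*) and 8.11% of all genes were at least 4-fold higher, and no member but 9.99% of all genes was at least 4-fold lower. Summed over the members, the level was 3051 CPM in this library and 55.9 to 146 CPM in the others.

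**Figure D1:**
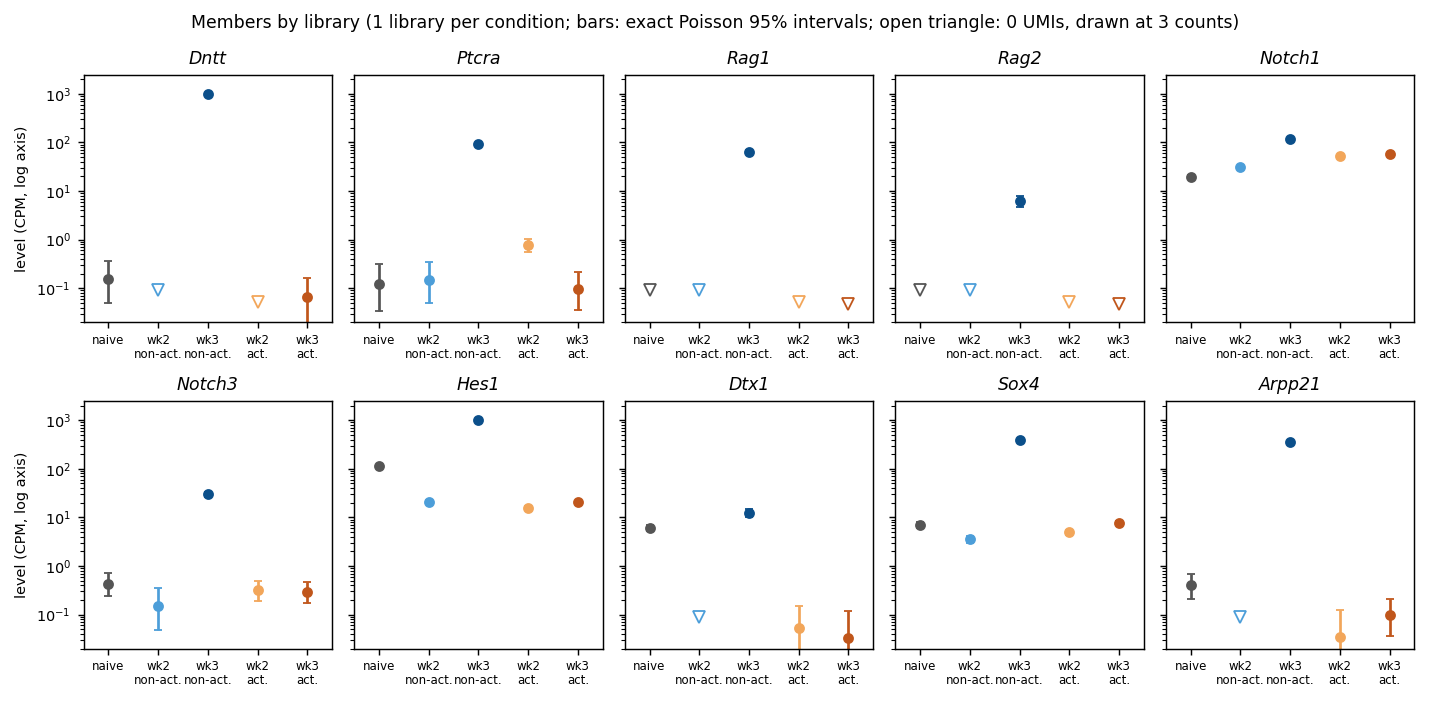
Level of each member in the 5 libraries, in CPM on a log axis, with exact Poisson 95% intervals and an open triangle at the level of 3 counts where no UMI was found (act., ta-activated; non-act., ta-non-activated). The ta-non-activated library of week 3 is highest for all 10, from 6.17 CPM for *Rag2* to 997 CPM for *Hes1*. *Notch1*, *Hes1*, *Sox4*, *Ptcra* and *Notch3* have UMIs in all 5 libraries.

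The rearrangement genes were close to all or none. *Rag1* (ENSMUSG00000061311) and *Rag2* (ENSMUSG00000032864) encode the 2 parts of the recombinase that cuts receptor gene segments, and they lie tail to tail on chromosome 2 of GRCm38, from 101638282 to 101649501 and from 101624718 to 101632529, with 5752 bases between their ends. *Rag1* had 600 UMIs in the ta-non-activated library of week 3, or 63.9 CPM (58.9 to 69.2), and 0 UMIs in each of the other 4. That is at least 689.6-fold above the naïve library, where 3 counts would be 0.0926 CPM. *Rag2* had 58 UMIs there, or 6.17 CPM (4.69 to 7.98), and again 0 in the other 4, a level at least 66.7-fold above the naïve one.

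*Dntt* (ENSMUSG00000025014, chromosome 19 from 41029275 to 41059525) encodes the template-free polymerase that adds bases at the joints. It had 9226 UMIs in 849 of the 1601 ta-non-activated cells of week 3, or 982 CPM (962 to 1002). The naïve library had 5 UMIs, the week 3 ta-activated library 4, and both week 2 libraries 0. The libraries other than week 3 ta-non-activated overlapped with each other within counting error. Cells with a *Dntt* UMI held 10.9 UMIs of it on average, and at most 46.

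*Ptcra* (ENSMUSG00000036858, chromosome 17 from 46755663 to 46763712) encodes the pre-TCR α chain, the stand-in for the α chain before that gene is rearranged. It was at 92.2 CPM (86.1 to 98.5) in ta-non-activated cells of week 3, from 866 UMIs in 432 cells. In the week 2 ta-activated library it had 44 UMIs, or 0.767 CPM (0.557 to 1.03). The other 3 libraries had 4, 5 and 6 UMIs and levels of 0.0970 to 0.150 CPM whose intervals overlapped. The 44 UMIs of the week 2 culture came from 8 cells, with 20 of them (45.5%) in a single cell, and 42 lay in cells with ILC2 genes.

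The receptors differed from each other in how widely they were found. *Notch1* (ENSMUSG00000026923, chromosome 2 from 26457903 to 26516663) was at 119 CPM (112 to 126) in the ta-non-activated library of week 3. It was at 58.2 CPM (week 3) and 52.0 CPM (week 2) in the ta-activated libraries, 31.0 CPM in ta-non-activated cells of week 2 and 19.8 CPM in naïve cells, with no overlap between any neighbours in this order. Its ratio to the next library, 2.04 (1.91 to 2.19), and that of *Dtx1*, 2.08 (1.64 to 2.62), were the smallest of the members, with overlapping intervals. *Notch3* (ENSMUSG00000038146, chromosome 17 from 32120820 to 32166852), a receptor of early thymocytes, was at 29.6 CPM (26.2 to 33.3) in ta-non-activated cells of week 3. Elsewhere it lay between 0.150 and 0.432 CPM, from 5 to 18 UMIs per library, and each neighbouring pair of these 4 libraries overlapped.

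*Hes1* and *Dtx1* respond to Notch signals, the first as a repressor of transcription and the second as a ubiquitin ligase of the Deltex family. *Hes1* (ENSMUSG00000022528, chromosome 16 from 30064384 to 30067796) was at 997 CPM (977 to 1017) in the ta-non-activated library of week 3, 112 CPM (108 to 116) in the naïve library, and 21.1, 20.7 and 15.8 CPM in the week 2 ta-non-activated, week 3 ta-activated and week 2 ta-activated libraries. The naïve library was the next highest and did not overlap with any other. *Dtx1* (ENSMUSG00000029603, chromosome 5 from 120680202 to 120711927) showed a like order, with 12.6 CPM (10.4 to 15.04) in ta-non-activated cells of week 3 and 6.05 CPM (5.23 to 6.96) in naïve cells. It had 0, 3 and 2 UMIs in the week 2 ta-non-activated, week 2 ta-activated and week 3 ta-activated libraries.

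*Sox4* (ENSMUSG00000076431, chromosome 13 from 28948919 to 28953713), a transcription factor of progenitors in many lineages, was at 389 CPM (376 to 401) in ta-non-activated cells of week 3. It lay between 3.52 and 7.57 CPM in the other libraries, where the week 3 ta-activated and naïve levels overlapped. *Arpp21* (ENSMUSG00000032503, chromosome 9 from 112065091 to 112235938), an RNA-binding protein gene used in brain and in immature thymocytes, was at 360 CPM (348 to 372). It had 13 UMIs in the naïve library, 6 in the week 3 ta-activated library, 2 in the week 2 ta-activated library and 0 in ta-non-activated cells of week 2.

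The members occurred together in the same cells. To compare libraries at 1 depth, each cell with at least 2000 UMIs was thinned at random to 2000. After thinning, 650 of 1495 ta-non-activated cells of week 3 (43.5%, 40.9 to 46.0) had UMIs of at least 3 members. The same was true of 1 of 6147 naïve cells, 1 of 3714 week 3 ta-activated cells, and 0 of 1809 and 0 of 2822 cells of the week 2 libraries, which at a limit of 3 counts allow shares of up to 0.166% and 0.106% (Clopper-Pearson limits of 0.204% and 0.131%). Without thinning the shares were 52.4% in ta-non-activated cells of week 3 and 0.172% to 1.23% in the others. At least 5 members were found in 275 of the 1495 cells (18.4%) and in no cell of another library. In contrast, a UMI of at least 1 member was found in 69.3% of ta-non-activated cells of week 3 and in 8.46% to 16.7% of the cells of the others.

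**Figure D2:**
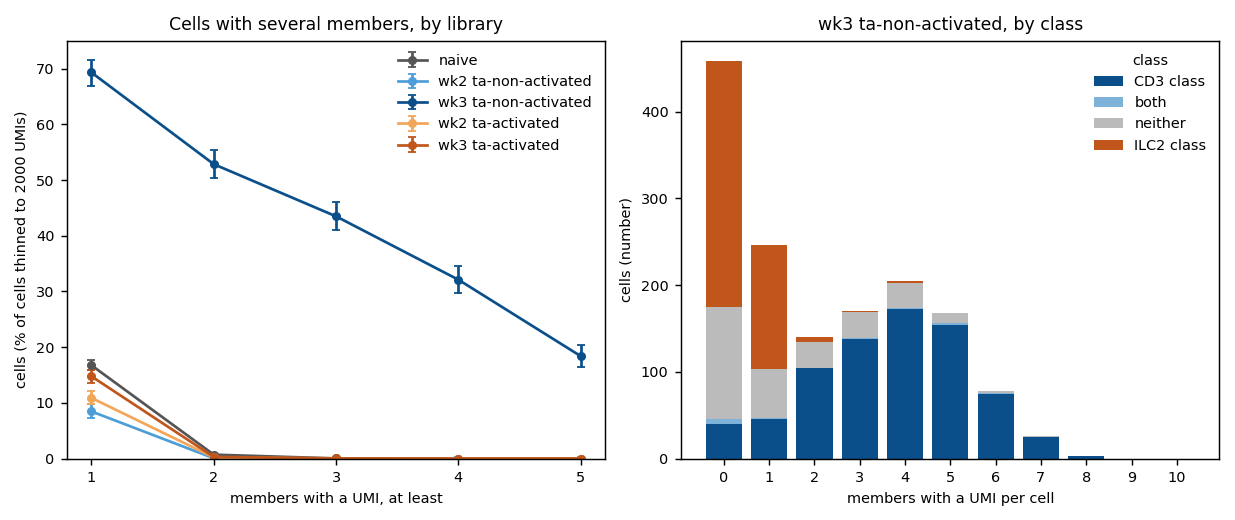
Left, percent of thinned cells with at least 1 to 5 members by library, with Clopper-Pearson 95% intervals; right, number of ta-non-activated cells of week 3 with 0 to 10 members, stacked by class. The ta-non-activated curve of week 3 falls from 69.3% to 18.4% while the other 4 are below 1% from 2 members on, and cells with 3 or more members are mostly of the CD3 class.

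Cells were then put in classes by genes that are not members. The CD3 class had UMIs of at least 2 of the 4 genes *Cd3d*, *Cd3e*, *Cd3g* and *Cd247* and of under 2 of the 8 ILC2 genes, and the ILC2 class the reverse. Of the 1495 ta-non-activated cells of week 3, 758 (50.7%) were of the CD3 class, 435 (29.1%) of the ILC2 class, 13 of both and 289 of neither. The labels name all of them ILC2s, and the sort removed cells that bound the antibodies to CD3ε/γ or TCRβ at the surface. The ST2 gene *Il1rl1* was at 1.19 CPM in the CD3 class against 425 CPM in the ILC2 class. *Il13* and *Il5* had 0 UMIs in the CD3 class. All of these are among the 8 ILC2 genes that set the classes, so this division follows in part from the rule. At least 3 members were found in 568 CD3 class cells (74.9%, 71.7 to 78.0), in 3 ILC2 class cells (0.690%, 0.142 to 2.00) and in 74 cells of neither class (25.6%). The most members in 1 cell were 8, in 3 CD3 class cells, and 40 CD3 class cells had none. Seen from the other side, 87.4% of the 650 cells with at least 3 members were of the CD3 class. Before thinning, the median depth was 5943 UMIs in the CD3 class and 2994 in the ILC2 class. By rule the ILC2 class holds no cell with 2 or more CD3 genes, so ILC2s with RNA of such cells could be counted as both. Of the 13 cells of both, 5 had at least 3 members. The part of free RNA in droplets in the shares of the ILC2 class was not tested.

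Within this library the rearrangement genes were abundant in the CD3 class and close to absent from the ILC2 class. *Dntt* was at 1269.7 CPM (1241 to 1299) in the CD3 class and 14.3 CPM (8.73 to 22.1) in the ILC2 class. After thinning, a *Dntt* UMI was found in 85.9% of CD3 class cells and in 1.15% of ILC2 class cells. *Ptcra* was at 136 and 2.14 CPM, the latter from 3 UMIs, a ratio of 63.6 (21.7 to 309). *Rag1* was at 91.5 and 1.43 CPM, the latter from 2 UMIs, a ratio of 64.1 (17.6 to 530.3). *Rag2*, at 8.34 CPM in the CD3 class, had no UMI in the ILC2 class, and its ratio was at least 3.89. The 289 cells of neither class lay between the others, with *Dntt* at 877 CPM, *Ptcra* at 28.6 CPM and *Rag1* at 26.4 CPM.

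The Notch receptors, *Dtx1*, *Sox4* and *Arpp21* followed the same division. *Notch1* was at 152 CPM (143 to 163) in the CD3 class and 15.01 CPM (9.29 to 22.9) in the ILC2 class, a ratio of 10.2. *Notch3* was at 42.5 CPM and *Dtx1* at 19.2 CPM in the CD3 class, with 0 UMIs of either in the ILC2 class, so that they were at least 19.8-fold and 8.97-fold higher. *Sox4* was at 516 and 17.9 CPM, and *Arpp21* at 488 and 5.72 CPM, ratios of 28.9 (19.5 to 44.7) and 85.4 (43.3 to 198).

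*Hes1* did not. It was at 1216 CPM (1188 to 1245) in the CD3 class and 675 CPM (633 to 720) in the ILC2 class, a ratio of 1.80 (1.68 to 1.93). A *Hes1* UMI was found in 66.1% of thinned CD3 class cells and in 138 of 435 ILC2 class cells (31.7%, 27.4 to 36.3), where *Dntt*, the rearrangement gene of most UMIs, was found in 1.15%. Among ILC2 class cells of the 5 libraries, the *Hes1* level was 675 CPM in ta-non-activated cells of week 3, 127 CPM in naïve cells, and 23.1, 16.5 and 21.1 CPM in the week 2 ta-non-activated, week 2 ta-activated and week 3 ta-activated cells. The first 2 of these lay apart from each other and from the rest. *Notch1* had another order in the same cells, with its lowest level in the ta-non-activated library of week 3 (15.01 CPM) and 18.4, 31.8, 54.9 and 58.8 CPM in the naïve, week 2 ta-non-activated, week 2 ta-activated and week 3 ta-activated libraries. The first 2 of these overlapped.

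**Figure D3:**
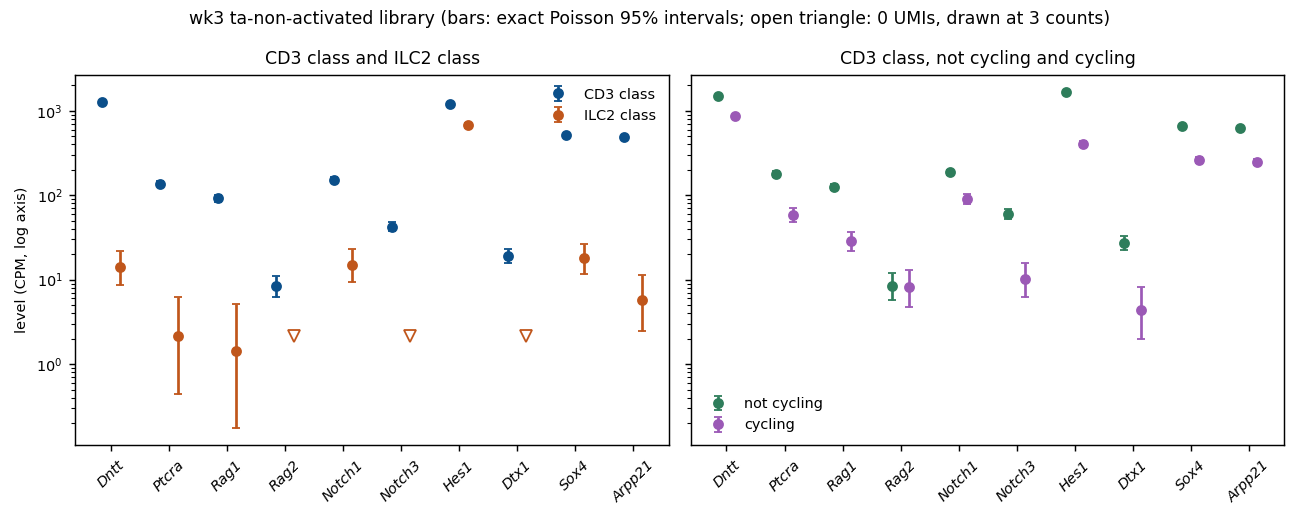
Level of each member in the ta-non-activated library of week 3, in CPM on a log axis, with exact Poisson 95% intervals: left, CD3 class and ILC2 class; right, non-cycling and cycling CD3 class cells (cycling, UMIs of 2 or more of 12 cell-cycle genes). Open triangles mark 0 UMIs, drawn at 3 counts. *Hes1* has the smallest ratio of the members with UMIs in both classes (1216 and 675 CPM), and *Rag2* the smallest between non-cycling (8.39 CPM) and cycling (8.24 CPM) cells, followed by *Dntt* (1490.4 and 862 CPM).

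A ratio of CD3 class to ILC2 class of at least 4 was found for 8 of the 10 members, all but *Rag2* and *Hes1*, and for 10.7% of 9717 genes with at least 20 UMIs over both classes. No member was at least 4-fold lower, as 6.63% of all genes were. The median log2 ratio was 4.58 over the members and 0.40 over all these genes. Because the members were picked in this library, the count is a description of them.

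Inside the CD3 class, most members took a larger share of the UMIs in cells outside the cell cycle, but only 5 of them had more UMIs per cell there. A cell counted as cycling when 2 or more of 12 cell-cycle genes had UMIs, and 129 of the 758 were (17.0%), at a median depth of 15481 UMIs against 5504 in the other 629. *Hes1* was at 1655 CPM in non-cycling and 404 CPM in cycling cells, a ratio of 4.09 (3.81 to 4.40). *Rag1* was at 126 and 28.6 CPM, a ratio of 4.39 (3.34 to 5.86). *Notch3* was at 60.0 and 10.2 CPM, and *Dtx1* at 27.3 and 4.36 CPM, the latter from 9 UMIs. These 4 showed the largest ratios of the members.

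*Ptcra* was at 178 and 58.7 CPM, a ratio of 3.04 (2.50 to 3.72), and *Notch1* at 186 and 90.7 CPM. *Sox4* (654 and 261 CPM) and *Arpp21* (618 and 248 CPM) had ratios close to each other, of 2.50 in both. *Dntt* was at 1490.4 and 862 CPM, a ratio of 1.73 (1.64 to 1.83). *Rag2* was at 8.39 and 8.24 CPM, a ratio of 1.02 whose interval ran from 0.549 to 1.95. On this scale a ratio of at least 2 was found for 8 of the 10 members (all but *Dntt* and *Rag2*) and for 16.8% of 9168 genes with at least 20 UMIs over both, and none of the members but 7.43% of all genes had a ratio that far below 1. The cells compared come from 1 library. Counted as UMIs per cell, which follow the greater depth of cycling cells, *Hes1* was still higher in non-cycling cells (10.04 against 6.47), as were *Rag1* (0.762 against 0.457), *Ptcra* (1.08 against 0.938), *Notch3* and *Dtx1*. The other 5 had more UMIs per cycling cell, with 9.04 in non-cycling and 13.8 in cycling cells for *Dntt*, 1.13 and 1.45 for *Notch1*, 3.97 and 4.18 for *Sox4*, 3.75 and 3.96 for *Arpp21* and 0.0509 and 0.132 for *Rag2*. Of 12 measured surface genes that change over thymocyte stages, 8 were at least 2-fold higher in CPM in non-cycling cells and 2 in cycling cells. Over all genes these shares were 16.8% and 7.43%. The interleukin-2 receptor chain gene *Il2ra*, which marks pre-TCR stages, was among the first, at 196 CPM in non-cycling and 49.0 CPM in cycling cells. *Cd8b1*, a later marker, was among the second, at 7.86 and 67.4 CPM.

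Pairs of members were counted in the thinned ta-non-activated cells of week 3, and set beside the product of their shares, the number of cells with both if the 2 genes fell on cells independently. Over the 45 pairs the median of this ratio was 1.86, and the interval lay above 1 for 37. *Dntt* and *Arpp21* were together in 487 cells, 60.3% of the 807 cells with either, at a ratio of 1.80 (1.64 to 1.97). *Sox4* and *Arpp21* were together in 353 cells, 50.5% of the 699 with either. Of the 217 cells with *Ptcra*, 202 (93.1%) also had *Dntt*, as did 136 of the 151 with *Rag1* (90.1%). The cells of a pair share library, depth and base composition, and the CD3 class makes up about as many cells as the other classes together.

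Within the 758 CD3 class cells the pairs lay closer to the product. The median ratio over the 45 pairs was 1.15 there, and the interval lay above 1 for 8 pairs. The ratio cannot exceed 1 over the larger of the 2 shares, so high shares in this class in part fix the lower ratios. *Dntt* was in 651 of the 758 cells. All 9 cells with *Rag2* also had *Dntt*, and the ratio of that pair was 1.16. The largest was that of *Notch3* and *Dtx1*, found together in 12 cells against a product of 4.79, a ratio of 2.50 (1.29 to 4.37). *Ptcra* and *Rag1* were together in 61 cells against a product of 39.4, a ratio of 1.55 (1.18 to 1.99). These 2 pairs were also the only ones of the 45 whose interval lay above 1 in the 629 non-cycling CD3 class cells, at 11 cells and a ratio of 2.04 (1.02 to 3.65) and at 56 cells and a ratio of 1.42 (1.07 to 1.84). Over all classes, *Rag2* had UMIs in 11 thinned cells of the library. Of these 9 also had *Arpp21*, a ratio of 2.32 (1.06 to 4.41), and 3 had *Rag1*, a ratio of 2.70 (0.557 to 7.89). Within the CD3 class the first pair was in 7 cells at a ratio of 1.29 (0.520 to 2.66). The second was in 3 cells at a ratio of 1.77 (0.364 to 5.16).

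**Figure D4:**
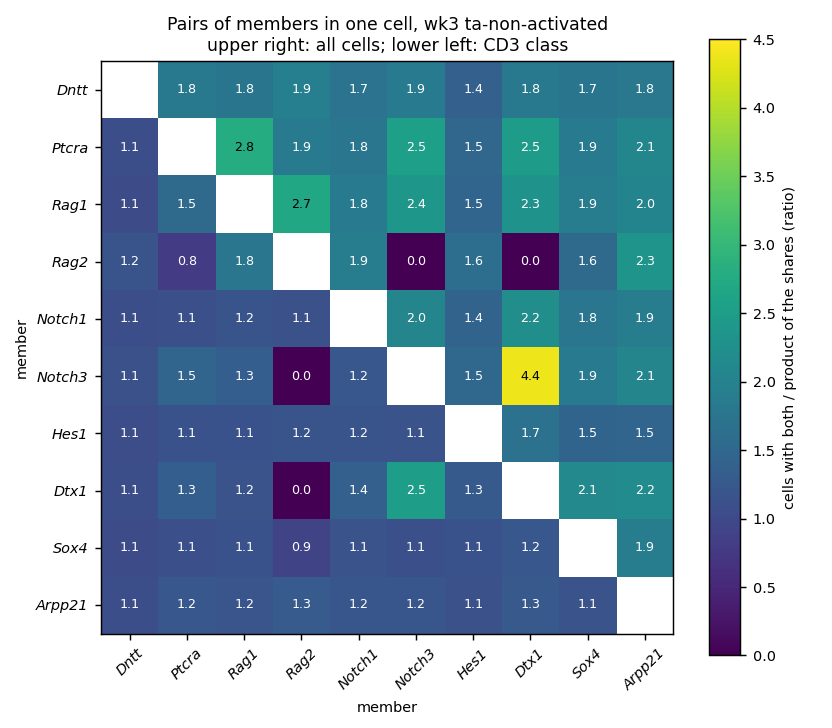
Cells with both members of a pair over the product of their shares, in the ta-non-activated library of week 3 after thinning: upper right, all 1495 cells; lower left, the 758 CD3 class cells. Ratios at the upper right have a median of 1.86 and those at the lower left of 1.15, and *Notch3* with *Dtx1* is the highest in both (4.39 and 2.50).

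Other genes were ranked by how closely they followed the summed members over the 1601 cells of this library (Pearson r of log counts per 10000, no test). The 10 highest were *Myl10* (r = 0.80), *Ly6d* (0.79), *Cd24a* (0.77), *Hsp90aa1* (0.72), *Cdk6* (0.70), *Rhoh* (0.69), *Cd3e* (0.69), *Plac8* (0.68), *Myb* (0.68) and *Cd3g* (0.67). *Ly6d* and *Cd24a* encode surface proteins of immature lymphocytes, *Rhoh* a GTPase of pre-TCR signalling and *Myb* a factor of progenitors. *Myl10*, a myosin light chain gene, was at 1350 CPM in the CD3 class and 17.15 CPM in the ILC2 class. The 5 lowest were *S100a4* (-0.75), *Cd52* (-0.74), *Tmsb4x* (-0.71), *S100a6* (-0.69) and *Il7r* (-0.69), and *S100a4* was at 37.4 and 1881 CPM. Among the members themselves, r with the sum of the other 9 was highest for *Dntt* (0.77), *Arpp21* (0.75) and *Sox4* (0.70) and lowest for *Rag2* (0.15), the member with the fewest UMIs.

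Between the CD3 class and the ILC2 class, most other genes of the Notch pathway did not show the members' division. Nor did the member *Hes1*, and the members had been picked by their levels in this library. Over all measured genes, 10.7% were at least 4-fold higher in the CD3 class and 6.63% at least 4-fold lower. Of 16 measured genes of receptors, proteases, glycosyltransferases and nuclear partners, 1 was at least 4-fold higher in the CD3 class (*Maml3*, a coactivator, at 31.6 against 3.57 CPM) and 3 were at least 4-fold lower. Those were *Notch2* (12.6 against 134 CPM), *Rbpj* (59.6 against 279 CPM) and the γ-secretase gene *Psen2* (7.49 against 56.5 CPM). Among ligand genes, *Jag1* was at 54.3 CPM in the ILC2 class and had 1 UMI in the CD3 class, while *Dll1*, *Dll3*, *Dll4* and *Jag2* had fewer than 20 UMIs over both classes and were not compared. None of 9 measured targets and regulators passed 4-fold in either direction. *Hey1*, a target of the same family as *Hes1*, was at 16.8 against 11.4 CPM, and *Nrarp*, a target that feeds back on the receptor, at 8.68 against 3.57 CPM. In the split by cell cycle *Hey1* was at 24.4 CPM in non-cycling and 2.91 CPM in cycling CD3 class cells.

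Partners of the recombinase had UMIs in both classes, with a median log2 ratio of 1.32 against 0.40 over all measured genes. Of all these genes, 10.7% were at least 4-fold higher in the CD3 class and 6.63% at least 4-fold lower. *Xrcc6* (229 against 17.9 CPM), a Ku subunit, and *Lig4* (19.4 against 4.29 CPM), the ligase of end joining, were the 2 of 10 measured genes at least 4-fold higher in the CD3 class, and none was lower by that much. Cycling cells made up 17.0% of the CD3 class and 0.460% of the ILC2 class. Within the CD3 class, 2 of the 10 (*Hmgb1* and *Hmgb2*) were at least 2-fold higher in cycling cells and 3 in non-cycling cells. Over all genes these shares were 7.43% and 16.8%. The part of cycling cells in the ratios between the classes was not tested. The nuclease gene *Dclre1c*, which opens hairpin ends, was at 27.2 against 10.7 CPM, and within the CD3 class at 37.8 CPM in non-cycling and 7.76 CPM in cycling cells. Of 17 genes of the CD3 chains, receptor constant regions and proximal signalling, 10 were at least 4-fold higher in the CD3 class, 4 of them the CD3 genes that defined it. The others included *Trdc* (346 against 11.4 CPM), *Lck* (469 against 50.0 CPM) and *Rhoh* (684 against 87.9 CPM). *Trac*, whose gene is rearranged after the β chain, was at 11.1 against 10.7 CPM.

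Of 18 measured regulators of early T cell stages, 7 were at least 4-fold higher in the CD3 class, as were 10.7% of all measured genes. *Id2*, which ILC2s need, was at least 4-fold lower (41.9 against 751 CPM), as were 6.63% of all measured genes. The higher ones included *Myb* (350.4 against 8.58 CPM), *Tcf7* (567 against 31.4 CPM) and *Lef1* (182 against 18.6 CPM). *Bcl11b* and *Runx1*, which both lineages use, were at 466 against 192 CPM and 188 against 80.7 CPM. Of 12 measured surface genes that change over thymocyte stages, 4 were higher and 3 lower by at least 4-fold. *Cd24a* (865 against 20.01 CPM) and *Ccr9* (93.2 against 7.86 CPM) were among the first, and *Kit* (14.3 against 201 CPM), *Cd44* (7.15 against 247 CPM) and *Il7r* (128 against 1445 CPM) made up the second. *Cd4* had 3 UMIs in the CD3 class.

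**Figure D5:**
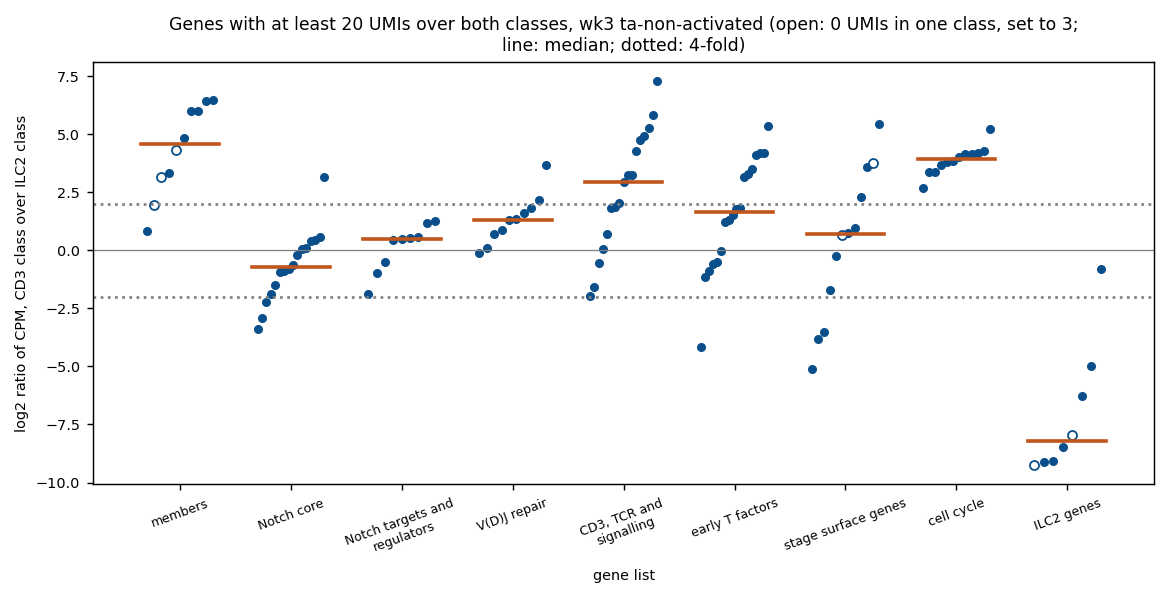
Log2 ratio of the CPM of the CD3 class over the ILC2 class in ta-non-activated cells of week 3, for each gene with at least 20 UMIs over both, by list; open points had 0 UMIs in 1 class and are set to 3, lines are medians and dotted lines mark 4-fold. The members have a median of 4.58, and the lists of other Notch pathway genes lie near 0 (medians of -0.73 and 0.47). The ILC2 genes, which helped to set the classes, lie far below (-8.22).

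Genes of other cell types were looked for, since B cell precursors also use *Rag1*, *Rag2* and *Dntt*. In the ta-non-activated library of week 3, UMIs were found for 6 of 10 B-lineage genes, and their summed level was 137 CPM, against 9.63 to 60.0 CPM in the other libraries. Most of it was *Ighm*, at 118 CPM in the CD3 class. *Ms4a1*, *Pax5* and *Vpreb3* had 0 UMIs in both classes, and *Cd79a* had 1 in the CD3 class. In the whole library *Ebf1* had 6 UMIs and *Igll1* 2. *Cd79b*, a receptor signalling chain of B cells, was at 30.8 CPM in the CD3 class and 5.72 CPM in the ILC2 class, a ratio of 5.39 (2.68 to 12.7). *Vpreb1*, of the surrogate light chain, was at 6.64 CPM in the CD3 class. NK and ILC1 genes (6 of 6 with UMIs) summed to 2.77 CPM, where the other libraries ran from 1.42 to 27.8 CPM. Myeloid genes (5 of 6) summed to 16.2 CPM against 1.02 to 9.45 CPM, epithelial genes (3 of 4) to 80.6 CPM against 2.04 to 289.7 CPM, and endothelial genes (4 of 4) to 38.6 CPM against 11.1 to 88.2 CPM. Of 5 mast cell genes only *Cpa3* had UMIs, at 82.3 CPM against 0 to 29.2 CPM for the whole list elsewhere, and it was at 63.3 CPM in the CD3 class. Of the myeloid genes *Lyz2* was at 15.8 CPM in the CD3 class and 3.57 CPM in the ILC2 class, *Cd68* had 19 and 1 UMIs, and *Csf1r* had 0 in both classes, as did the NK gene *Tbx21*. The part of these cell types in the members' levels was not tested.

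The other 4 libraries were not used to pick the members, and they also have 1 library per condition, so no test is given. Between the fresh libraries, naïve and week 2 ta-non-activated, *Hes1* was 5.31-fold (4.89 to 5.76) and *Dtx1* at least 67.0-fold higher in naïve cells, *Sox4* 2.00-fold higher, and *Notch1* lower at a ratio of 0.639 (0.578 to 0.706). Of all genes with at least 20 UMIs over both, 25.8% were at least 4-fold higher and 7.06% at least 4-fold lower in naïve cells. The naïve matrix came from another version of the counting software, and over 7580 genes its log2 ratio to the ta-non-activated library of week 2 rose with intron length (Spearman 0.54, across genes, which are not independent), as did its ratios to the other 3 libraries (0.54 to 0.55). *Dtx1* has 26456 bases of intron, *Notch1* 44529, *Hes1* 1376 and *Sox4* 0. The part of intron length in the naïve levels was not tested.

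The naïve *Dtx1* was highest in cells with CD3 genes. Of its 196 UMIs, 82 were in the 315 naïve CD3 class cells, at 50.5 CPM (40.2 to 62.7), against 2.20 CPM (1.67 to 2.84) in the 5045 ILC2 class cells. After thinning, 8.25% of the first and 0.297% of the second had a *Dtx1* UMI, at median depths of 4854 and 4616 UMIs. Naïve *Hes1* had the reverse order, at 4.31 CPM in the CD3 class and 127 CPM in the ILC2 class. The same naïve CD3 class cells had 2 UMIs of *Dntt*, 1 of *Ptcra* and 0 of *Rag1*, *Rag2*, *Notch3* and *Arpp21*, and none of them had 3 members. Presence of CD3 genes and of the rearrangement members thus went together in the ta-non-activated library of week 3 and not in the naïve one.

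Between the week 2 libraries, *Ptcra* was 5.10-fold higher in ta-activated cells by UMIs, of which a single cell held 20 of 44, while the share of cells with a UMI was 0.276% against 0.219% with overlapping intervals. *Notch1* was 1.68-fold (1.56 to 1.81) and *Sox4* 1.41-fold higher after culture, and *Hes1* by summed UMIs was lower at a ratio of 0.749 (0.678 to 0.828). The direction for *Hes1* depended on the scale. Averaged over cells after each was scaled to the same total, *Hes1* was higher after culture, at 0.236 against 0.165. The share of thinned cells with a *Hes1* UMI was 2.48% after culture against 2.49%, with overlapping intervals. Of all genes with at least 20 UMIs over both, 11.8% were at least 4-fold higher after culture and 1.81% lower. From the week 2 to the week 3 ta-activated library *Notch1*, *Hes1* and *Sox4* differed by ratios of 1.12, 1.31 and 1.52 in summed UMIs. *Ptcra* was lower at 0.126 (0.0440 to 0.298), where 3.01% of all genes were at least 4-fold lower and 1.54% higher. The *Hes1* mean over cells went the other way, from 0.236 in week 2 to 0.177 in week 3. The shares of thinned cells with a *Hes1* UMI were 2.48% and 3.02%, with overlapping intervals. *Rag1*, *Rag2* and *Dntt* gave at most 4 UMIs in either culture, and no difference in them was detectable at this depth.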

How the data were processed

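UMI counts of each gene in each barcode, deposited by the authors without normalization, were read for the 5 libraries (27726 common genes). Per the file headers the naïve counts come from Cell Ranger 6.0.0 and the others from 3.0.2, and the submitters' processing notes also name Seurat 3 and GRCm38. Barcodes were used where they had 200 or more genes and less than 5% of counts from mitochondrial genes. Totals ran from 9394957 to 61830293 UMIs per library. No doublet caller was run, and leaving out the 5% of cells with most UMIs was an alternative.

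Levels are summed UMIs on the CPM scale. Shares and classes used cells thinned to 2000 UMIs. A fold against 0 UMIs was set from 3 counts. Members and gene lists were chosen with earlier results of these data known. Named genes are the members, the 10 highest and 5 lowest by correlation with their sum among genes found in 5% of cells, and examples from the lists. No differential test was run, since the members were picked on 1 library of 1 condition. edgeR 4.0.16 in R 4.3.3 gave TMM factors as an alternative scaling. Python 3.11.15 with numpy 2.4.6, scipy 1.17.1, pandas 2.3.3 and matplotlib 3.10.9 was used, and thinning, intervals and correlations were tested on simulated data. Gene positions and intron lengths came from GENCODE M21, in which 27639 of the gene identifiers were found. A single gene of the lists is left unnamed here.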

Additional observations from a re-analysis of the deposited data

Results flagged for a closer look

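The ratio of ta-activated to ta-non-activated cells ran in opposite directions in weeks 2 and 3 for 3 members, with 1 library of each kind per week, and the difference between the weeks was not tested. For *Ptcra* it was 5.10 (95% interval 2.03 to 16.5) in week 2, where 20 of the 44 ta-activated UMIs came from a single cell and the share of cells with a UMI was 0.276% against 0.219%, and 0.00105 (95% interval 0.000385 to 0.00230) in week 3. For *Notch1* it was 1.68 (95% interval 1.56 to 1.81) and 0.489 (95% interval 0.457 to 0.524). For *Sox4* it was 1.41 (95% interval 1.13 to 1.77) and 0.0195 (95% interval 0.0177 to 0.0215). Among ILC2 class cells *Notch1* was higher in ta-activated cells in both weeks. It was at 54.9 against 31.8 CPM in week 2 and 58.8 against 15.01 CPM in week 3. *Sox4* was at 4.82 against 2.74 CPM in week 2 and 7.46 against 17.9 CPM (95% interval 11.6 to 26.4) in week 3. The last level came from 25 UMIs, with a *Sox4* UMI in 5 of 435 thinned cells, as for *Dntt*. The part of free RNA in droplets in it was not tested. The intervals treat UMIs of 1 cell as independent. The week 3 values use the library in which the members were picked.

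Barcodes that the filter left out also held the members. At week 3, the 237 such barcodes of the ta-non-activated library had 1863 UMIs of the members, or 3616 CPM (3453 to 3784), while the 564 of the naïve library had 84 UMIs, or 85.8 CPM.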

How the results depend on the processing

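All 10 members were highest in the ta-non-activated library of week 3, without overlap of intervals where these were computed, with all deposited barcodes, a mitochondrial limit of 10%, means over cells, TMM scaling, or without the 5% of cells with most UMIs. Restricted to ILC2 class cells the number was 5 (*Dntt*, *Rag1*, *Hes1*, *Sox4* and *Arpp21*). These had 20, 2, 945, 25 and 8 UMIs in that class of the ta-non-activated library of week 3. The part of free RNA in droplets in these counts was not tested. Without the CD3 class, an alternative chosen after the data were seen, the number was 8. The share of cells with at least 3 members (43.5%) was 52.4% without thinning, 28.3% after thinning to 1000 UMIs, 52.8% for at least 2 members, 32.1% for at least 4 and 19.1% without *Sox4*, *Notch1* and *Hes1*. A mitochondrial limit of 10% gave 44.1%. Of cells with at least 3 members, the CD3 class held 80.3% or 60.2% when it was defined from 1 or 3 genes. The number of members at least 4-fold higher in the CD3 class was 8 or 9 under the alternatives, and the number at least 2-fold higher in non-cycling cells was 6 when 1 cell-cycle gene was enough and 2 by UMIs per cell (chosen after the data were seen), where cycling cells are deeper. Of all genes, 1.82% rather than 2.72% passed 4-fold over each other library when 100 UMIs were required. *Rag2*, with 58 UMIs, is limited by depth. No paired analysis was possible with 1 library per condition, and the labels do not say whether the libraries of a week share mice. Ratios within each week are given as values.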
